A study of Mus musculus with 18 samples.

Results

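Control mouse embryonic stem cells (ESCs) were sampled in neural differentiation (ND) at day 4 (d4) and day 6 (d6). The 3 control libraries of d6 were compared with the 3 of d4 across all genes, which makes 6 of the 18 RNA-seq libraries of the study. Control cells (Ctrl) carried Zeb2 alleles flanked by loxP sites (Zeb2 fl/fl, strain CD1), and Zeb2 KO cells (Zeb2 -/-, strain CD1), with 3 libraries at each of d0, d4 and d6, served for comparison together with the 3 Ctrl libraries of d0. Cells of d0 were in 2i + LIF, were then grown as embryoid bodies with 15% FBS, and received N2B27 medium without serum and with 500 nM retinoic acid on d4. The d6 cells had thus lost serum and gained retinoic acid at the same time, and the 2 changes cannot be told apart. The Ctrl d4 libraries also differed from those of d0 and d6 over whole chromosomal regions, described below. Whatever sets them apart cannot be told apart from the day either. Neither the labels nor the methods give which of several ESC lines were sequenced, or whether d4 cells were taken before or after the change of medium. The study describes each stage as 3 independent experiments. RNA was taken from whole populations, so fewer cells of a type and less RNA per cell cannot be told apart for any gene below.

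Retinoic acid is a derivative of vitamin A that enters the nucleus, binds receptors of the RAR and RXR families and switches on genes whose regulatory DNA carries paired receptor half-sites. Binding proteins (Crabp) carry it in the cell and Cyp26 enzymes destroy it. In the embryo it patterns the hindbrain and spinal cord, in part by inducing Hox genes from the 3' end of their clusters, while pluripotency factors such as Oct4 (Pou5f1) and Nanog are silenced. Zeb2 is a zinc finger repressor that acts in neural development and in the switch from an epithelial to a mesenchymal state.

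Expression was measured as TPM, a transcript level scaled for gene length and library size, for 10965 genes. The authors kept only genes with 5 TPM or more in at least 3 libraries. A gene low at d4 is thus measured only because it was higher in other libraries, and listed genes that stayed low are not counted. The same holds for a gene low at d6. The shares of a list that rose or fell can be raised by this filter, and its median moved up or down, to an extent that was not tested. Fold changes (FC) are differences of the mean log2(TPM + 1), given with their standard error (SE, n = 3 in each group), and every adjusted p is from limma with Benjamini-Hochberg adjustment over all 10965 genes. A gene rose or fell where its adjusted p was below 0.01, and was a differentially expressed gene (DEG) where its log2FC also lay beyond 1 in either direction. The reads on these genes numbered 14343279 to 15621169 per library at Ctrl d4 and 9701815 to 13355042 at Ctrl d6. Zeb2 (ENSMUSG00000026872, chromosome 2, 44983632 to 45117395, minus strand) stood at 1.23, 1.39 and 1.47 TPM in the Ctrl libraries of d4 and at 7.81, 7.53 and 7.65 TPM at d6. In KO it stood at 0.126 to 0.204 TPM at d4 and 0.594 to 0.733 TPM at d6, below every Ctrl library of the same day. Zeb2 rose 5.62-fold in Ctrl (log2FC 1.87 ± 0.12, adjusted p = 2.4e-09), without overlap of the libraries. The labels call d4 a multipotent progenitor and d6 a neural progenitor. At d6 the neural progenitor genes Nes, Pax6 and Sox1 lay between 34.6 and 93.5 TPM (means), whereas 11 of 38 listed neural progenitor and patterning genes, among them Six3, Rax, En1 and Olig2, were not among the genes measured. Of the 27 measured, 16 rose and 3 fell from d4 to d6. Sox1 was among those that fell and was higher at d4, so these levels do not set d6 apart from d4.

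Before the single genes, 5 chromosomal regions set the d4 libraries apart. They were the whole of chromosome 8 (668 measured genes), chromosome 6 from 85 Mb to its end (320 genes), chromosome 12 from 50 Mb (335 genes), chromosome 14 from 115 Mb (27 genes) and chromosome 17 from 65 Mb (108 genes; positions in GRCm38). In Ctrl from d4 to d6 the median log2FC of the expressed genes was -0.48 on chromosomes 8 and 6, -0.55 on chromosome 12, 0.83 on chromosome 14 and 0.91 on chromosome 17. On chromosome 8, 86.7% of these genes were lower at d6, and on chromosome 17, 94.1% were higher. The level of chromosome 8 relative to genes elsewhere was 0.25 to 0.26 on the log2 scale in the Ctrl d4 libraries and -0.26 to -0.24 at Ctrl d6. It was -0.24 to -0.22 in Ctrl d0, 0.22 to 0.24 in KO d0, 0.22 to 0.23 in KO d4 and -0.28 to -0.27 in KO d6. In each of the 5 regions the libraries of Ctrl d4, KO d0 and KO d4 thus lay on one side and those of Ctrl d0, Ctrl d6 and KO d6 on the other, with no library between. In Ctrl this difference goes with the day. It cannot be told apart from the steps from d0 to d4 and from d4 to d6, for genes in or outside the regions. The files hold no measurement of DNA, and how the regions bear on the results was not tested beyond a fit in which the median of each region was removed from each library, an analysis chosen after seeing the data.

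**Figure D1:**
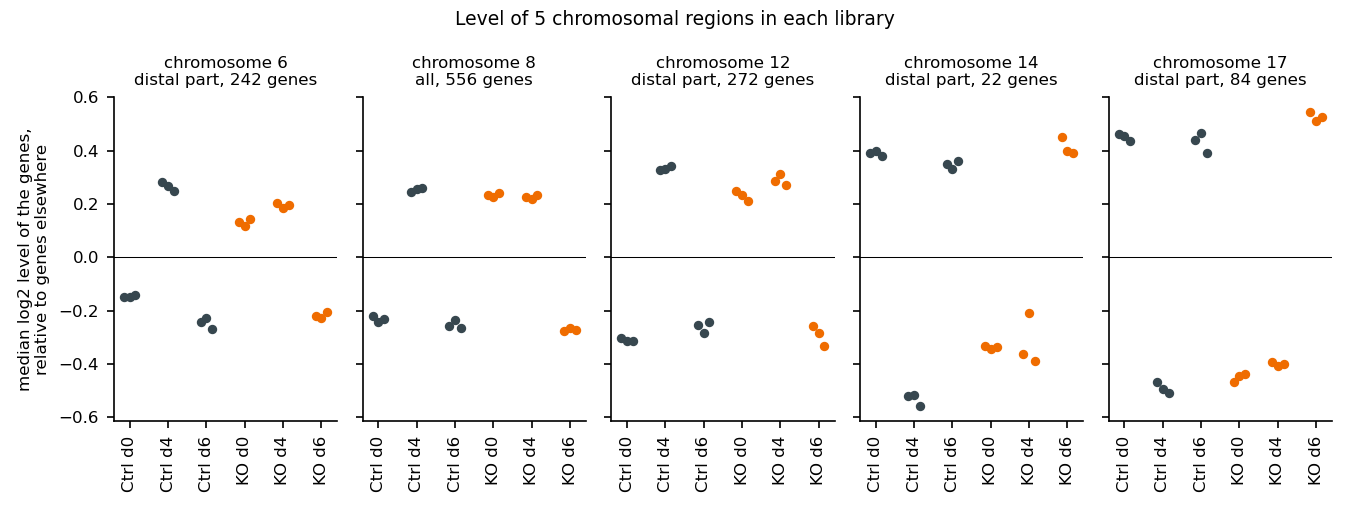
Median level of the genes of each region in each of the 18 libraries, on the log2 scale and relative to genes elsewhere (y axis, 1 point for a library), by genotype and day (x axis). Ctrl d4, KO d0 and KO d4 fall on the same side of 0 in every panel, opposite to Ctrl d0, Ctrl d6 and KO d6.

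The 5 regions hold 13.3% of the measured genes (1458). The 3 regions that were lower at d6 hold 12.1% of all genes but 33.8% of the genes that fell (796) and 24.7% of the lower DEGs (122). Genes named below that lie in a region are given with both values, as measured and with the regional medians removed.

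Across all genes 2477 rose (22.6%) and 2356 fell (21.5%) from d4 to d6 in Ctrl. The counts and shares of every list below stand beside these shares of all genes. Of the DEGs, 822 were higher at d6 (7.5% of all genes) and 494 lower (4.51%), so that 62.5% of DEGs were higher. Quantile normalization gave 766 higher and 753 lower DEGs (50.4% higher) and a minimum mean of 10 TPM 368 and 364 (50.3%), whereas 62.7% were higher with median-ratio scaling and 67.5% with voom. Outside the regions 724 DEGs were higher and 371 lower. The median log2FC of all genes was 0.04, with quartiles at -0.29 and 0.38. The higher DEGs started from a low level, with a median of 5.59 TPM at d4 and 20.7 TPM at d6, and the lower DEGs went from a median of 27.2 to 8.83 TPM. A change of more than 8-fold was seen in 64 genes that were higher at d6 and in 11 that were lower. The values of the 3 libraries of each day did not overlap in 34.8% of all genes with d6 higher and in 30.4% with d6 lower, so a lack of overlap alone was common.

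Most genes of retinoic acid metabolism and response that changed were higher at d6, led by its carriers. Of 30 measured genes of 32 listed, 17 rose (56.7%, against 22.6% of all genes) and 3 fell, with a median log2FC of 0.53. None of the 30 lies in a shifted region. Part of this group was already high at d4, with a median log2FC of 2.03 from d0 to d4, a comparison that shares the d4 libraries.

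The promoters of Rarb and Cyp26a1 are shown because both hold a DR5 element, the classical site of retinoic acid receptors. DR5 was searched as the half-site AGGTCA, its variant AGTTCA, the variant GGGTCA or the variant GGTTCA, then 5 bases, then again one of these, on both strands of the 250 bases before the start. It was found in 4 of 7221 promoters of measured genes (0.0554%; Blvrb, Cyp26a1, Ppbp and Rarb) and in 2 of the 21 with a promoter among the retinoic acid genes. The sequences are from RefSeq (GRCm38.p6), 5' to 3' on the strand of the gene, 120 bases up to the start, with the half-sites in capitals. Those of Cyp26a1 stand on the opposite strand.
Rarb, chr14:16575477-16575596, minus strand: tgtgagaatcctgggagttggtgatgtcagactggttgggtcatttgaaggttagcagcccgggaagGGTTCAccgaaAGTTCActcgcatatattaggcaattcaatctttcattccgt
Cyp26a1, chr19:37697688-37697807, plus strand: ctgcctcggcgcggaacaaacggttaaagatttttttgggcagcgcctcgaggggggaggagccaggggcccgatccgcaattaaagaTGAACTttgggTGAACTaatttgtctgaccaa

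Of the 4 genes with this element, which are named here for it and not by their change, 3 rose and Cyp26a1 did not pass the test. Of all genes 22.6% rose, and 4 genes are too few for a comparison. Ppbp, a chemokine gene, rose from a mean of 0.239 to one of 7.30 TPM (log2FC 2.73), and Blvrb, biliverdin reductase B, from 18.2 to 24.97 TPM (log2FC 0.44). In the Ctrl d4 libraries 1 read on a gene of 1 kb gives 0.246 to 0.267 TPM, so Ppbp was near the floor at d4 and its fold is uncertain. Rarb, a retinoic acid receptor that is itself a target, was at 53.2, 61.1 and 61.5 TPM at d4 and at 146, 132 and 147 TPM at d6, a 2.41-fold rise without overlap (log2FC 1.26 ± 0.17, adjusted p = 1.2e-05). Cyp26a1 (ENSMUSG00000024987, chromosome 19, 37697798 to 37701536, plus strand), the enzyme that breaks down retinoic acid, was at 448, 476 and 604 TPM at d4 and at 472, 413 and 471 TPM at d6. These values overlapped, and no change passed the test (log2FC -0.16 ± 0.16, adjusted p = 0.41). Cyp26a1 had been at 0.623 TPM at d0, so that its high level was present by d4, and in KO it was at 4.79 to 6.71 TPM at d4 and 16.7 to 23.2 TPM at d6.

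The binding proteins rose together. Crabp1 (ENSMUSG00000032291, chromosome 9, 54764748 to 54773110, plus strand) went from 338, 368 and 319 TPM to 3292, 3751 and 2846 TPM, 9.64-fold (log2FC 3.26 ± 0.13, adjusted p = 2.4e-11). Crabp2 (ENSMUSG00000004885, chromosome 3, 87948666 to 87953376, plus strand), which delivers retinoic acid to its receptors, went from 128, 157 and 203 TPM to 2561, 2675 and 2441 TPM, 15.7-fold (log2FC 3.99 ± 0.19, adjusted p = 1.5e-10). Both were among the 5 most abundant genes that rose, and neither showed overlap. Rbp4, which carries retinol outside cells and is made by visceral endoderm as well, rose from between 3.79 and 4.49 to between 105 and 156 TPM (log2FC 4.57). Nr2f1 (ENSMUSG00000069171, chromosome 13, 78188973 to 78199757, minus strand), an orphan nuclear receptor of the developing nervous system also known as COUP-TF1, rose from 2.797, 4.31 and 4.47 TPM to 93.9, 95.4 and 85.1 TPM (log2FC 4.27 ± 0.15, adjusted p = 6.4e-12). The 3 members that fell were the retinol transporter Stra6 (log2FC -1.11), the posterior homeobox gene Cdx1 (-1.09) and the receptor Rarg (-0.79). Cdx1 did not pass with voom on the recovered reads (log2FC -1.09, adjusted p = 0.012).

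**Figure D2:**
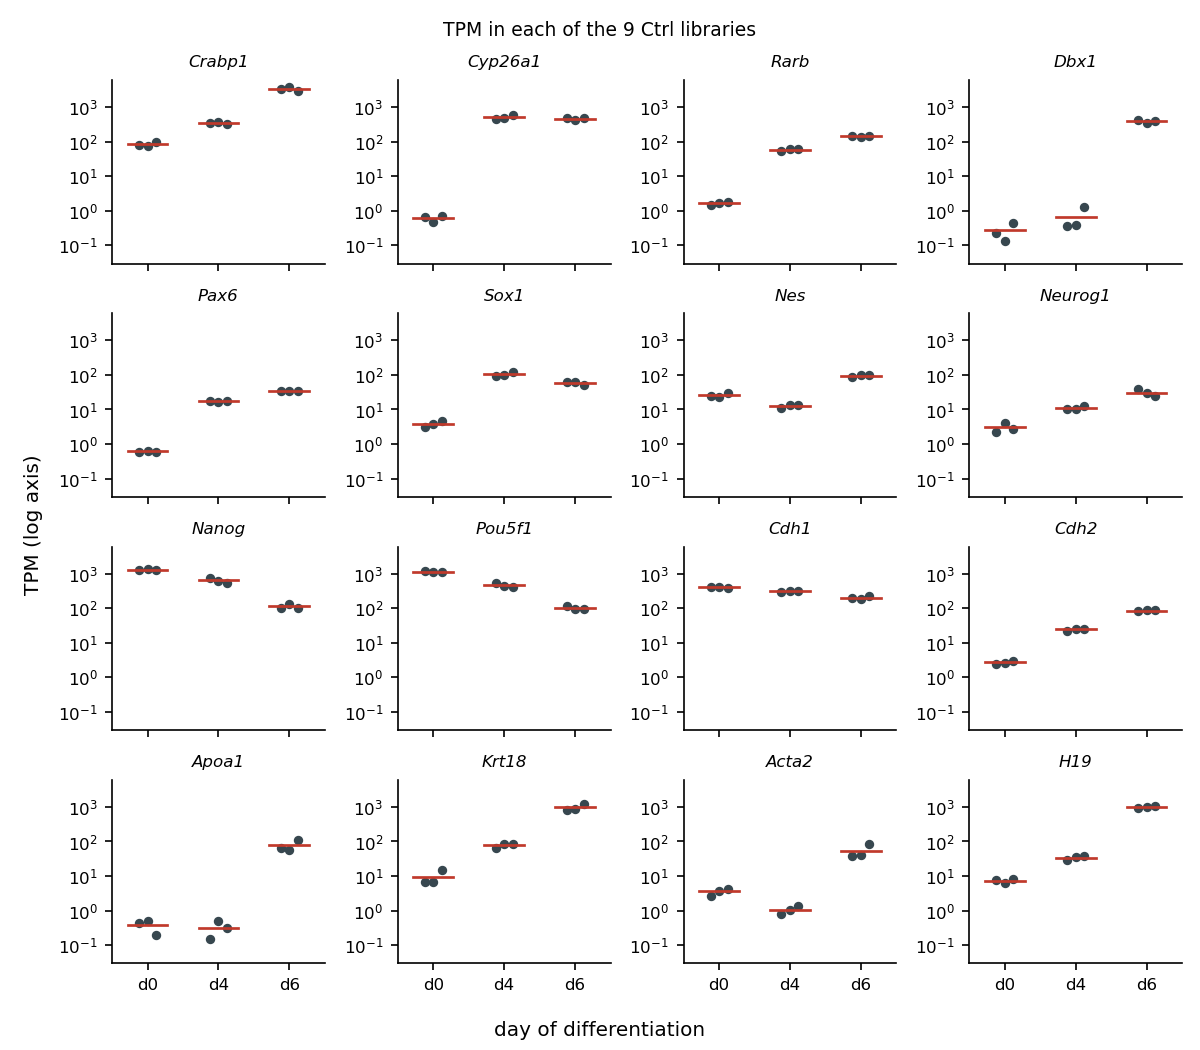
TPM (log axis) in each of the 9 Ctrl libraries by day (x axis), for 16 genes, with points for libraries and bars for the means of 3. Cyp26a1 reached its level by d4, Dbx1 and Apoa1 were near or below 1 TPM until d6, and the means of Nanog and Pou5f1 were lower at each later day.

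Hox genes, the homeobox genes that specify position along the body axis, differed by their place in a cluster and by the cluster itself. All 24 measured Hox genes were counted, and 16 rose (66.7%, against 22.6% of all genes) and 4 fell, with a median log2FC of 1.04, or 1.73 over the 12 with a mean of at least 10 TPM over all libraries. Of the 14 genes of paralogue groups 1 to 5, those nearest the 3' end, 13 rose and none fell, with a median log2FC of 1.44 and a range of -0.56 to 3.74. Among the 10 genes of groups 6 to 13, 3 rose and 4 fell, with a median of -0.47. The 3 that rose are all of the Hoxb cluster, and the 4 that fell are of the Hoxa and Hoxd clusters. Of the latter, Hoxd9, Hoxd13 and Hoxa7 had d6 means of 4.32, 3.49 and 3.73 TPM, and passed the filter of 5 TPM only with the help of other libraries. Hox genes that stayed low are not counted. The filter thus bears on the contrast of the groups, to an extent that was not tested. Spearman's rank correlation of paralogue number and log2FC was -0.44 across the 24 genes, which share clusters and libraries and are not independent. By cluster it was -0.54 (a, 7 genes), -0.23 (b, 9 genes), -0.50 (c, 3 genes) and -0.80 (d, 5 genes). It was -0.17 over the 18 genes with a mean of at least 10 TPM in the Ctrl d4 and d6 libraries, a choice made after seeing the data, and 0.25 over the 12 with such a mean over all 18 libraries, d0 and KO included. Whether reads were counted by strand is not given in the sources used here, so reads of antisense RNAs of the clusters cannot be told apart from those of Hox genes.

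The largest rise was that of Hoxd3 (ENSMUSG00000079277, chromosome 2, 74711927 to 74748442, plus strand), from 6.13, 7.31 and 8.29 TPM to 113, 113 and 101 TPM (log2FC 3.74 ± 0.14, adjusted p = 6.4e-12). Hoxb3, Hoxb5 and Hoxb4 followed, with log2FC of 2.39, 2.38 and 2.24. Hoxb4 was the most abundant of all at d6, at 221 ± 17.5 TPM (SD, n = 3). The genes that fell were Hoxd9, from 15.3, 14.9 and 17.6 TPM to 3.99, 5.03 and 3.94 TPM (log2FC -1.67 ± 0.20, adjusted p = 2.5e-06), and Hoxd13, Hoxa7 and Hoxd8, with log2FC of -1.13, -1.10 and -0.82. Neighbours in the d cluster thus moved in opposite directions. The median log2FC of the family from d0 to d4 was 3.45, in a comparison that shares the d4 libraries.

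**Figure D3:**
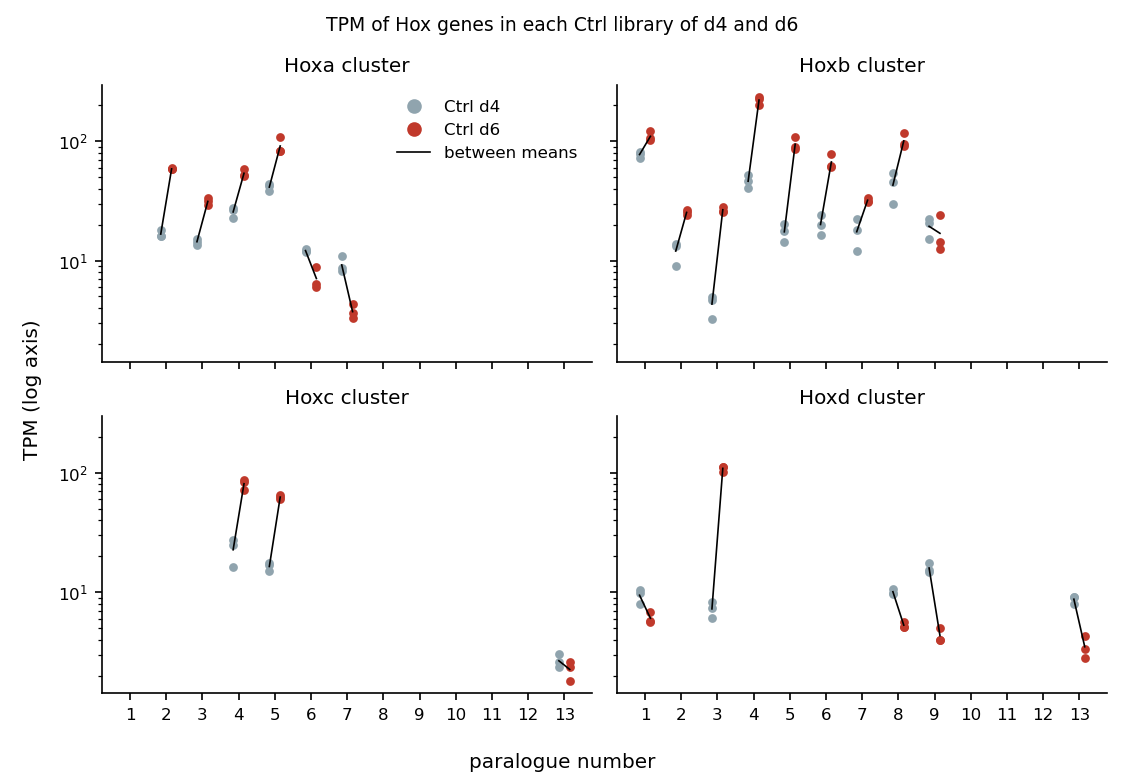
TPM (log axis) of the Hox genes, 1 gene not drawn, in the 3 Ctrl libraries of d4 and of d6, by paralogue number (x axis) and cluster, with a line between the means. Lines slope upward for the genes drawn of groups 1 to 5 except Hoxd1, and downward for the members of the d cluster from Hoxd8 on.

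Neural progenitor and patterning factors rose in the main, but the genes that mark the neural lineage most broadly did not all rise. Of 27 measured genes of 38 listed, 16 rose (59.3%) and 3 fell, with a median log2FC of 1.25. The filter leaves out listed genes that stayed low, so this share and median are not those of the whole list. With the regional medians removed, 17 rose and 2 fell. The summed TPM of the list was 1356 to 1404 at d4 and 1794 to 2079 at d6.

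The change of largest size in the whole table was that of Dbx1 (ENSMUSG00000030507, chromosome 7, 49631499 to 49636849, minus strand), a homeobox gene of interneuron progenitors in the middle of the neural tube. It was at 0.352, 0.383 and 1.26 TPM at d4 and at 417, 351 and 379.8 TPM at d6 (log2FC 7.89 ± 0.20, adjusted p = 1.9e-13), so that a gene near 1 TPM or below became one of the abundant ones. Pou3f2, a POU factor of neural precursors known as Brn2, went from 1.23, 1.003 and 1.51 TPM to 67.7, 57.97 and 54.9 TPM (log2FC 4.77 ± 0.16, adjusted p = 2.5e-12). Zic1 and Wnt1, genes of the dorsal neural tube, rose from means of 0.8201 and 0.941 TPM to 31.6 and 24.9 TPM (log2FC 4.12 and 3.77). None of these 4 genes showed overlap between the days, a condition set in advance for the 15 largest changes in each direction.

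Nes, the intermediate filament of neural progenitors, was at 10.8, 13.7 and 13.3 TPM at d4 and 87.3, 96.9 and 96.4 TPM at d6 (log2FC 2.80 ± 0.14, adjusted p = 2.0e-10). Pax6, which patterns the neural tube, rose in mean, from 17.6, 16.4 and 17.7 TPM to 33.8, 35.1 and 34.95 TPM (2.01-fold; log2FC 0.97 ± 0.12, adjusted p = 5.2e-06). Both were without overlap. Sox1, the earliest marker of the neural plate, went the other way, from 92.03, 99.99 and 122 TPM to 62.3, 61.4 and 51.4 TPM (log2FC -0.83 ± 0.16, adjusted p = 0.00039). It lies on chromosome 8, and with the regional medians removed its fall did not pass the test (log2FC -0.32 ± 0.16, adjusted p = 0.11). Sox2, which serves both pluripotent and neural cells, fell from between 786 and 887 to between 489 and 569 TPM (log2FC -0.65). Olig3, a factor of the dorsal neural tube, fell as well (log2FC -1.69). The neural factor Zfp521 stayed within 39.5 to 42.3 TPM at d4 and 39.4 to 42.9 TPM at d6 (log2FC 0.01 ± 0.12, adjusted p = 0.95). Gbx2, a gene of the anterior hindbrain that ESCs also express, was at 52.9 to 70.5 TPM and then 39.3 to 40.96 TPM, without overlap but with an adjusted p of 0.023. It passed with voom on the recovered reads (adjusted p = 0.0027), quantile normalization (0.0052) and a fit of the 6 libraries alone (0.0014).

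Among other transcription factors, Foxe3, Rfx4 and Foxb1 were in the 15 largest rises of DEGs chosen for a lack of overlap. Foxe3, known best from the lens, had 2 reads over the 3 libraries of d4 and 537 over those of d6, a depth-scaled ratio of 334 (exact 95% interval 91.9 to 2762, counting error only). Its values were 0.283 to 0.616 TPM and then 44.2 to 79.1 TPM, and a gene without reads is listed above 0 because 1 read had been added to each gene. Rfx4, a factor of the developing neural tube, rose from between 0.645 and 1.35 to between 31.8 and 38.3 TPM (log2FC 4.21), and Foxb1 from between 0.179 and 0.329 to between 17.8 and 22.3 TPM (log2FC 4.10).

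Genes of neurogenesis rose alongside. Of 27 measured genes 16 rose (59.3%) and 4 fell, with a median log2FC of 0.88 that was 0.38 with a minimum mean of 10 TPM and 0.52 with a pseudocount of 5 TPM. Neurog1, a proneural factor, rose 2.76-fold, from 10.7, 10.1 and 12.7 TPM at d4 to 39.1, 29.1 and 24.1 TPM at d6 (log2FC 1.36 ± 0.19, adjusted p = 1.6e-05), without overlap. Gadd45g, a target of proneural factors, and Lhx1 rose with log2FC of 3.00 and 2.38.

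The early neuronal genes that fell were Stmn2 (log2FC -1.67), Isl1 (-0.87), Ina (-0.86) and Pou4f1 (-0.81). Tubb3, the neuronal beta-tubulin, was at 119, 146 and 131 TPM and then 161, 191 and 165 TPM, without overlap but short of the threshold (log2FC 0.38 ± 0.12, adjusted p = 0.013). It lies on chromosome 8, and it rose with the regional medians removed (log2FC 0.89 ± 0.12, adjusted p = 1.2e-05). It also passed with voom on the recovered reads (adjusted p = 0.00048), quantile normalization (0.0052), a fit of the 6 libraries alone (0.0085) and without Ctrl d4 replicate 2 (0.00903).

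Pluripotency genes fell almost as a block. Of the 17 naive pluripotency factors, which maintain the ground state, 16 fell (94.1%, against 21.5% of all genes) and none rose, with a median log2FC of -1.66. Of 26 general pluripotency genes 23 fell (88.5%) and 1 rose, with a median of -1.35. The same numbers fell with the regional medians removed, with medians of -1.65 and -1.20.

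Nanog (ENSMUSG00000012396, chromosome 6, 122707489 to 122714633, plus strand) was at 729.8, 629 and 534 TPM at d4 and at 102, 134 and 101 TPM at d6, 5.62-fold lower (log2FC -2.48 ± 0.12, adjusted p = 1.5e-10). Pou5f1 went from 525, 436 and 397 TPM to 114, 93.05 and 95.6 TPM, 4.49-fold lower (log2FC -2.15 ± 0.10, adjusted p = 1.7e-10). Neither was silent at d6, since both still exceeded 34.6 TPM, the mean of Pax6. Esrrb (ENSMUSG00000021255, chromosome 12, 86361117 to 86521628, plus strand), an orphan nuclear receptor of naive cells, fell from 281, 277 and 224 TPM to 22.7, 26.1 and 19.9 TPM (log2FC -3.46 ± 0.10, adjusted p = 9.0e-13). Nanog and Esrrb lie in shifted regions and still fell with the regional medians removed (log2FC -1.97 and -2.86).

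Tcl1, Nr0b1 and Prdm14, all of the naive network, had log2FC of -3.29, -3.06 and -2.85. Among the general genes, Trh and the Nodal-related ligand Gdf3 fell most (-3.33 and -3.06), followed by Lefty2 (-2.63), an antagonist of Nodal. With the regional medians removed Tcl1, Trh and Gdf3 were at -2.69, -2.81 and -2.54. The gene that rose was Lin28b, which blocks maturation of let-7 miRNAs, from between 71.99 and 86.02 to between 114 and 127 TPM (log2FC 0.57 ± 0.10, adjusted p = 0.00022). Among the 15 largest falls of DEGs chosen for a lack of overlap were also Nanos3 and Prdm1. Nanos3, a germ cell gene, went from between 52.3 and 59.9 to between 1.99 and 4.15 TPM (log2FC -3.71, or -3.21 with the regional medians removed). Prdm1, a repressor with a part in germ cell specification, went from between 72.7 and 84.2 to between 7.703 and 9.58 TPM (log2FC -3.08).

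Of 17 measured postimplantation epiblast and primitive streak genes of 26 listed, 5 rose (29.4%) and 3 fell (17.6%), with a median log2FC of 0.26, shares close to the 22.6% and 21.5% of all genes. With the regional medians removed 5 rose and 5 fell (median 0.13), and the median was 0.12 with quantile normalization and 0.46 with voom. T, Mixl1, Evx1 and Tbx6 were not among the genes measured. Fgf15 rose from between 1.74 and 2.07 to between 19.3 and 33.1 TPM (log2FC 3.27) and Sall2 from between 27.4 and 36.9 to between 78.6 and 87.1 TPM (1.36). Fgf5, the ligand that marks the epiblast, fell from 6.18, 7.49 and 7.04 TPM to 3.35, 2.58 and 1.404 TPM (log2FC -1.24 ± 0.21, adjusted p = 9.7e-05), while the epiblast factor Otx2 was at 5.38 to 7.94 and then 8.19 to 10.1 TPM (log2FC 0.43 ± 0.16, adjusted p = 0.029), and passed with voom on the recovered reads (adjusted p = 0.0068).

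Genes of cell adhesion showed a rise of N-cadherin together with epithelial genes. Of 27 measured genes of the cadherin switch and of junctions, 14 rose (51.9%) and 5 fell (18.5%), with a median log2FC of 0.90. With the regional medians removed 15 rose and 3 fell, and with a pseudocount of 5 TPM the median was 0.59. Cdh2, N-cadherin of neural and mesenchymal cells, rose from 22.5, 24.7 and 25.3 TPM to 82.9, 85.6 and 87.3 TPM (log2FC 1.78 ± 0.10, adjusted p = 1.2e-09). Cdh1, the epithelial E-cadherin, went from 299.7, 312 and 306 TPM to 194, 186 and 222 TPM (log2FC -0.61 ± 0.08, adjusted p = 5.1e-06). It lies on chromosome 8, and with the regional medians removed its fall did not pass the test (log2FC -0.10 ± 0.08, adjusted p = 0.29). Cdh1 remained above Cdh2 in every d6 library.

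Epcam, an epithelial adhesion molecule, rose from 82.1, 93.2 and 81.1 TPM to 279, 261 and 303 TPM (log2FC 1.71 ± 0.15, adjusted p = 7.5e-08). It lies on chromosome 17, and it still rose, by less, with the regional medians removed (log2FC 0.78 ± 0.15, adjusted p = 0.00039). The claudins Cldn3 and Cldn7, components of tight junctions on chromosomes 5 and 11, rose with log2FC of 2.34 and 2.02. Grhl3, an epithelial factor, fell from between 53.7 and 56.3 to between 6.77 and 10.8 TPM (log2FC -2.57).

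Markers of other lineages rose in the same libraries, and those of endoderm more than those of neural progenitors by their medians. Of 26 measured endoderm and visceral endoderm markers 23 rose (88.5%) and 1 fell, with a median log2FC of 2.33, and Sox17 and Hnf4a were not among the genes measured. Their summed TPM was 1236 to 1349 at d4 and 3324 to 4921 at d6. Their part in the changes of the other genes above was not tested. All 26 had reads at d4, with a median level of 4.68 TPM against 12.6 TPM for the neural progenitor genes. The median log2FC of the endoderm markers was 1.67 with a pseudocount of 5 TPM and 3.11 with voom. Apoa1, an apolipoprotein of visceral endoderm, had 3 reads over the d4 libraries and 1249 over those of d6, a depth-scaled ratio of 517 (exact 95% interval 177 to 2512, counting error only). It reached 66.6, 55.2 and 112 TPM. Afp, alpha-fetoprotein, reached 21.6, 14.4 and 38.6 TPM and Ttr, transthyretin, 24.6, 18.98 and 29.5 TPM, from 8 reads and 1 read over the d4 libraries. Replicate 3 was the highest of the d6 libraries for each of these 3 genes.

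The keratins Krt8 and Krt18 belong to this list and to that of trophectoderm. Krt18 (ENSMUSG00000023043, chromosome 15, 102028180 to 102032027, plus strand) went from 66.5, 84.5 and 81.9 TPM to 786, 884 and 1212 TPM (log2FC 3.60 ± 0.27, adjusted p = 1.9e-08). Of 13 trophectoderm markers 9 rose (69.2%) and 3 fell, with a median log2FC of 1.12 that was 0.58 with a pseudocount of 5 TPM. The leading ones were the keratins Krt19 (4.07), Krt18, Krt8 (3.56) and Krt7 (2.70). The transcription factors Tfap2c and Tead4 fell (-2.10 and -1.27, the latter -0.76 with the regional medians removed), and Cdx2 and Elf5 were not among the genes measured. The endoderm factor Foxa1 fell (log2FC -1.22, adjusted p = 0.00081), but lies on chromosome 12 and did not pass with the regional medians removed (log2FC -0.63, adjusted p = 0.048).

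Of 15 neural crest and dorsal genes 11 rose (73.3%) and 1 fell, with a median log2FC of 2.17 that was 1.28 with a minimum mean of 10 TPM. None lies in a shifted region. Pax3, Zic1 and Wnt1 are also counted among the neural progenitor genes, so these lists are not independent. Cdh6, a cadherin of the neural crest, rose from 1.87, 1.52 and 1.798 TPM to 32.4, 28.04 and 32.5 TPM (log2FC 3.55 ± 0.18, adjusted p = 3.4e-10), and Pax3, of the dorsal neural tube and the crest, from between 0.673 and 0.836 to between 16.2 and 20.3 TPM (log2FC 3.42). Sox10, the defining gene of migrating crest, was not among the genes measured, and the crest factor Foxd3 fell (log2FC -1.03), though not with voom on the recovered reads (adjusted p = 0.032). Of 18 mesoderm markers 10 rose (55.6%, against 22.6% of all genes) and 2 fell. Their median log2FC was 0.81 and turned to -0.45 with a minimum mean of 10 TPM. Their summed TPM was 290 to 339 at d4 and 317 to 372 at d6, and these ranges overlap. Hand1 and Osr1 led with log2FC of 2.67 and 2.44.

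**Figure D4:**
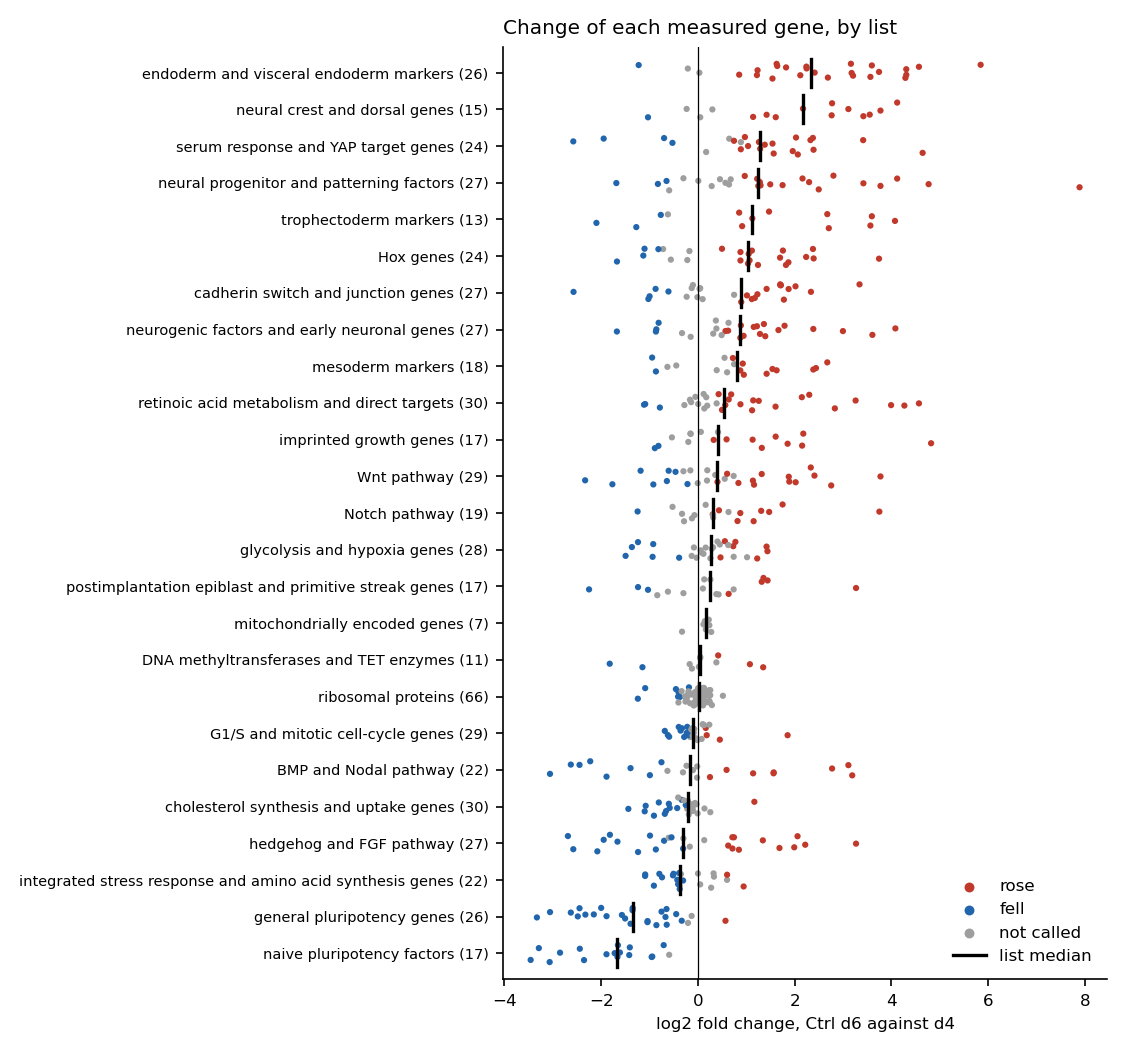
Log2FC of Ctrl d6 against d4 (x axis) for each measured gene of 25 lists (y axis, number of genes in brackets), with points in red for genes that rose, blue for genes that fell and gray for the others, and a bar at the list median. The medians run from -1.66 for naive pluripotency factors to 2.33 for endoderm and visceral endoderm markers.

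Genes of the serum response and of YAP rose in the step that removed serum. Of 24 measured serum response and YAP target genes 17 rose (70.8%) and 4 fell, with a median log2FC of 1.27. The genes that led encode parts of the contractile cytoskeleton and a secreted protein. Acta2, smooth muscle actin, rose from 0.828, 1.05 and 1.33 TPM to 38.1, 39.7 and 84.6 TPM (log2FC 4.64 ± 0.36, adjusted p = 2.9e-08), and Tagln, transgelin, from 12.2, 14.6 and 14.8 TPM to 161, 115 and 210.1 TPM (log2FC 3.41 ± 0.28, adjusted p = 4.8e-08). Replicate 3 was the highest d6 library for both. Thbs1, thrombospondin, rose with log2FC 2.39. The feedback inhibitors of FGF signaling Spry4, Spry2 and Dusp6 fell, with log2FC of -2.58, -1.95 and -0.70.

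Of 30 cholesterol synthesis and uptake genes 12 fell (40.0%, against 21.5% of all genes) and 1 rose. Their median log2FC was -0.21, or -0.35 with quantile normalization. Scd1, the desaturase of fatty acids, fell from 156, 171 and 188 TPM to 68.4, 56.6 and 63.03 TPM (log2FC -1.44 ± 0.12, adjusted p = 9.4e-08), without overlap. Msmo1, an enzyme of sterol synthesis, fell with log2FC -1.10, or -0.59 with the regional medians removed. A sterol response element, searched as TCACNCCAC on both strands of the 250 bases before the start, was found in 1 of 19 promoters of this list and in 88 of 7221 promoters (1.22%).

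The signaling pathways of the early neural tube changed member by member. The shares of each pathway stand beside 22.6% of all genes that rose and 21.5% that fell. In the Notch pathway 9 of 19 genes rose (47.4%) and 1 fell, with a median log2FC of 0.32. Hes3 and Hes5, repressors that keep neural progenitors from differentiating, rose from means of 4.35 and 2.74 TPM to 70.9 and 11.7 TPM (log2FC 3.75 and 1.75). Lfng, which modifies the Notch receptor, rose as well (1.47), and the receptor Notch4 fell (-1.25).

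In the Wnt pathway 13 of 29 genes rose (44.8%) and 8 fell (27.6%), with a median log2FC of 0.40 that was -0.11 with a minimum mean of 10 TPM. Besides the ligands Wnt1 and Wnt6 (2.41), the secreted antagonists Frzb (2.75) and Dkk1 (2.33) rose. The antagonist Notum (-2.33) and the receptors Fzd5 (-1.77) and Fzd10 (-0.92) fell. Sfrp1, another antagonist, fell as well (-1.18, or -0.68 with the regional medians removed).

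In the BMP and Nodal pathway 8 of 22 genes rose and 8 fell (36.4% each), with a median log2FC of -0.17. The median was -0.27 with a minimum mean of 10 TPM and -0.11 with voom. The ligand Bmp2 (1.57), the BMP targets Id3 (2.77) and Msx1 (3.11) and follistatin (Fst, 3.19), which binds activin, rose. The ligand Gdf3, the Nodal antagonists Lefty1 (-2.45) and Lefty2 and the BMP target Id4 (-2.22) fell.

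In the hedgehog and FGF pathway 11 of 27 genes rose (40.7%) and 12 fell (44.4%), with a median log2FC of -0.30 that was -0.19 without Ctrl d6 replicate 1. The ligands Fgf15 and Fgf3 (2.22), the receptor Fgfr3 (2.06) and the hedgehog co-receptor Boc (1.99) rose. Fgf17 (-2.69) and the hedgehog antagonist Hhip fell (-2.08, or -1.57 with the regional medians removed). Shh was not among the genes measured.

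The same step was measured in KO cells with libraries of its own. From d4 to d6 in KO 2355 genes rose (21.5%) and 2185 fell (19.9%), with 714 higher (6.51%) and 318 lower DEGs (2.9%). Of the 822 higher DEGs of Ctrl, 515 also rose in KO (62.7%), 284 were not called and 23 fell. Of the 494 lower DEGs, 325 also fell in KO (65.8%), 159 were not called and 10 rose. The 351 higher DEGs that both genotypes had are 42.7% of those of Ctrl and 49.2% of those of KO, and the 189 lower ones are 38.3% and 59.4%.

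The step itself differed between Ctrl and KO for 1468 genes (13.4%), with Ctrl more positive for 690 (6.29%) and more negative for 778 (7.1%). In the shifted regions, which were chosen for a shift in both genotypes, the median differences of the steps lay between -0.08 and 0.13. Of 27 neural progenitor genes the step differed for 18, in 17 of them with Ctrl more positive, and the median log2FC was 1.25 in Ctrl and -0.05 in KO. Of 24 Hox genes it differed for 11 (10 more positive in Ctrl), with medians of 1.04 and -0.09. For the retinoic acid genes these counts were 16 of 30 (12 more positive), with medians of 0.53 and 0.11.

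Dbx1 had the largest difference of the steps of any gene (7.97 ± 0.28, adjusted p = 5.3e-11). In KO it was at 0.135 to 0.669 TPM at d4 and 0.274 to 0.452 TPM at d6. Nr2f1, Pou3f2, Foxe3 and Hes3, which rose in Ctrl, had differences of 4.89, 4.74, 5.46 and 4.63, and their KO values of d6 were at most 0.456 TPM on average (Foxe3). Crabp1 rose in Ctrl and was at 41.2 to 52.6 and then 31.4 to 37.7 TPM in KO. Pax6 rose in Ctrl and fell in KO (log2FC -2.24 ± 0.12, adjusted p = 1.2e-09), and Cdh2 rose in Ctrl while KO had 2.51 to 2.903 and then 1.66 to 2.27 TPM (log2FC -0.34 ± 0.10, adjusted p = 0.011).

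The naive pluripotency factors stepped down in both genotypes, with medians of -1.66 in Ctrl and -1.94 in KO, and their steps differed for 5 of 17. The general pluripotency genes had medians of -1.35 and -0.42, and their steps differed for 20 of 26, in 19 of them with Ctrl more negative. Pou5f1 was at 969 to 1043 TPM in KO at d4 and at 561 to 718 TPM at d6 (log2FC -0.64 ± 0.10, adjusted p = 7.6e-05), with a difference of the steps of -1.51 ± 0.15, adjusted p = 1.9e-06. Fgf5 fell in Ctrl and rose in KO (log2FC 2.37 ± 0.21, adjusted p = 1.3e-07). Endoderm markers had medians of 2.33 and 1.25 (steps differed for 15 of 26, 14 of them more positive in Ctrl). The serum response and YAP target genes had medians of 1.27 and 1.62, and the 6 whose steps differed were more negative in Ctrl.

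**Figure D5:**
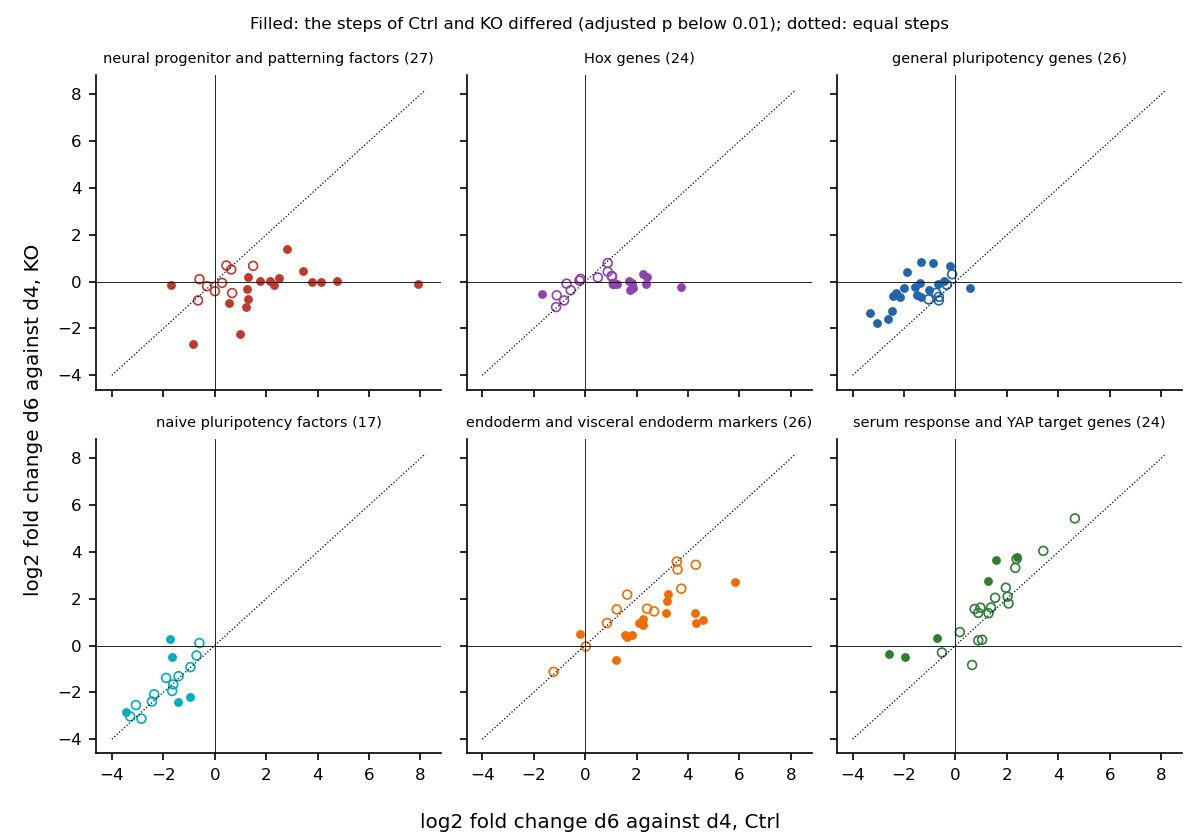
Log2FC of d6 against d4 in Ctrl (x axis) and in KO (y axis) for the genes of 6 lists, 1 point for a gene, filled where the steps of Ctrl and KO differed. The list medians in KO are -0.05 for neural progenitor genes and -0.09 for Hox genes, and 5 of 17 naive pluripotency factors are filled.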

How the data were processed

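The authors mapped 36 bp single reads to GRCm38 with TopHat2 2.0.13, counted them with featureCounts 1.4.6, left out short noncoding RNAs, asked for 5 TPM or more in at least 3 libraries, dropped the 20% of genes that varied least, and deposited TPM values. DESeq2 is named in the submitters' notes. After 81 repeated identifiers were left out, 10965 genes remained. The deposited table also holds 3 columns with a score of variability for each gene, which were not used. Whole reads were recovered from the TPM for all genes (100.0%, within 1e-06 of a whole read, with 1 added read removed) and gave depth. The test was limma 3.58.1 in R 4.3.3 (1 mean for each of 6 groups, 18 libraries, trend) on log2(TPM + 1). A fold change on this scale understates the change of low genes. The pseudocount, filters, normalization, fit, block and libraries were varied. Voom on the recovered reads called 1043 higher and 502 lower DEGs. The steps were also run on simulated reads with the same spread for every gene and no regional shifts. That setting differs from these data, so no conclusion is drawn from it.

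The 25 gene lists and the comparison were chosen with earlier results of these data known. Some genes are on several lists, so the lists are not independent. Named genes are the 15 largest DEGs in each direction without overlap, up to 4 called genes of each list and direction, a set of defining genes, the 5 largest differences between Ctrl and KO and the 5 most abundant called genes, each in both directions. Genes of pseudogene or antisense name were counted but not named. Some genes of this rule are not reported here. Genes named as not measured or as holding a motif fall outside this rule. Regions were stretches of at least 2 adjoining windows of 5 Mb whose median log2FC lay beyond 0.25 in both genotypes (at least 8 genes of mean 10 TPM). Positions are from GENCODE M21 for 10922 genes. Figures used Python 3.11.15 with matplotlib 3.10.9.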

Additional observations from a re-analysis of the deposited data

Results flagged for a closer look

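The change from d4 to d6 differed between Ctrl and KO for 1468 genes, by the test of the difference itself in limma. The following values are the log2FC of Ctrl minus that of KO, and each passed an adjusted p of 0.01 (limma, n = 3 in each group). Among genes of retinoic acid it was 3.62 for Crabp1, 3.32 for Crabp2, 4.89 for Nr2f1 and -1.84 for Cyp26a1. Neural genes were more positive in Ctrl, with 7.97 for Dbx1, 5.46 for Foxe3, 4.74 for Pou3f2, 4.63 for Hes3, 3.21 for Pax6, 1.97 for Tubb3, 1.83 for Sox1 and 1.43 for Nes. Zeb2 differed by 1.34, but it is the gene removed in KO, so its difference follows from the design and is no separate result. Cdh2 differed by 2.12 and Cdh1 by -0.81. The pluripotency genes Pou5f1 and Nanog differed by -1.51 and -1.24, and the epiblast genes Fgf5 and Pou3f1 by -3.61 and -1.63. Fgf5 fell in Ctrl, whereas Pou3f1 rose there and had a higher log2FC in KO. The rise of Pou3f1 in Ctrl did not pass limma without Ctrl d6 replicate 1 (log2FC 0.515, adjusted p = 0.012). The cyclin Ccnd1 differed by 0.95. The genes of the largest negative difference beside Fgf5 were Irgm1 (-3.20) and Gbp7 (-3.01), GTPases induced by interferon, Syt13 (-3.07), a synaptotagmin, and the ligand Wnt8a (-2.72). Irgm1 was at 11.8 to 13.4 TPM in Ctrl at d4 and 9.82 to 11.5 TPM at d6, and in KO at 2.12 to 2.83 and then 24.9 to 27.3 TPM. Gbp7 was at 11.2 to 14.8 and then 15.8 to 19.1 TPM in Ctrl, and at 0.216 to 0.535 and then 12.1 to 13.5 TPM in KO. Sox1, Tubb3, Cdh1 and Nanog lie in shifted regions, and with the regional medians removed their differences were 1.84, 1.97, -0.81 and -1.14.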

How the results depend on the processing

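The count of 822 higher DEGs was 479 with a pseudocount of 5 TPM, 368 with a minimum mean of 10 TPM and 1797 with a log2 threshold of 0.5. The 494 lower DEGs became 286, 364 and 1510, and 753 with quantile normalization. The fold of low genes falls as the pseudocount grows, and fewer genes are tested with a minimum level. Leaving out each library gave 758 to 850 higher and 477 to 495 lower DEGs, 2079 to 2175 genes that rose and 2025 to 2211 that fell, and 1141 to 1491 genes with different steps. The rank correlation of paralogue number and log2FC over Hox genes was 0.25 with a minimum mean of 10 TPM over all libraries and -0.17 with one over the Ctrl d4 and d6 libraries, the latter chosen after seeing the data.

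With the regional medians removed, chosen after seeing the data, 2597 genes rose and 1746 fell, with 822 and 410 DEGs and 1477 different steps. Of 33 called named genes in the regions 13 lost the call. Cdkn1b and Rpl13, which fell as measured (log2FC -0.40 and -0.41), turned to 0.12 and 0.097 and were not called. Pcbp1 went from -0.58 to -0.07 in Ctrl and was not called either. In KO, Rpl13 and Pcbp1 fell as measured and turned to 0.066 and 0.084. That of Zfp521, not called, turned to -0.033 with quantile normalization and was -0.025 (without Ctrl d6 replicate 3) to 0.036 (without Ctrl d4 replicate 3) when libraries were left out, also below 0 without Ctrl d4 replicate 1. Of 169 called named genes 139 kept the call under every setting. The sign of the median held in 20 of 25 lists. It turned with a minimum mean of 10 TPM (mesoderm, Wnt), with quantile normalization (DNA methyltransferases, mitochondrial genes) and without Ctrl d4 replicate 2 (ribosomal proteins).

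Replicate numbers were shared by d4 and d6, but the deviations of libraries of the same number correlated at only 0.13, 0.24 and 0.06, so they were not taken as pairs, although each library correlated best with its own number. With a replicate block 822 higher and 491 lower DEGs were called. Depth limits genes with under 10 reads at d4, whose folds are uncertain.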

Other observations

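The imprinted growth genes rose in part. Of 17 measured genes 9 rose (52.9%) and 2 fell, with a median log2FC of 0.42. H19 (ENSMUSG00000000031, chromosome 7, 142575529 to 142578143, minus strand), a noncoding RNA expressed from the maternal allele, went from 29.2, 36.7 and 36.8 TPM at d4 to 901, 995 and 1077 TPM at d6 (log2FC 4.82 ± 0.12, adjusted p = 1.9e-13). H19 was among the 15 largest rises of DEGs chosen for a lack of overlap. Its neighbor Igf2, a growth factor expressed from the paternal allele, rose from 31.3, 38.5 and 41.4 TPM to 146, 173 and 185 TPM (log2FC 2.15 ± 0.15, adjusted p = 8.0e-09). Peg10 and Cdkn1c rose with log2FC of 2.18 and 1.85. The 2 that fell were Rian and Mirg, noncoding RNAs of the Dlk1-Dio3 locus on chromosome 12, with log2FC of -0.82 and -0.89. Neither call held with the regional medians removed (log2FC -0.22 and -0.30, adjusted p = 0.09 and 0.19), and then 10 of the 17 rose and none fell.

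Of 11 genes of DNA methyltransferases and TET enzymes 3 rose (27.3%) and 2 fell (18.2%), close to the 22.6% and 21.5% of all genes, with a median log2FC of 0.05. Tet1, which oxidizes methylated cytosine, fell from 73.7, 61.5 and 62.03 TPM to 17.3, 17.5 and 18.7 TPM (log2FC -1.82 ± 0.13, adjusted p = 1.0e-08), and Tet2 fell as well (log2FC -1.15). Dnmt3l, a cofactor of the de novo methyltransferases, rose from 18.05, 19.1 and 26.4 TPM to 65.2, 43.3 and 58.3 TPM (log2FC 1.35 ± 0.16, adjusted p = 2.4e-06). Dnmt3b was at 32.97 to 46.4 and then 51.6 to 54.7 TPM (adjusted p = 0.038).

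Of 22 genes of the integrated stress response and amino acid synthesis 12 fell (54.5%, against 21.5% of all genes) and 2 rose, with a median log2FC of -0.38. The falls were led by Mthfd2 (-1.09), an enzyme of mitochondrial folate metabolism, and by the amino acid transporter Slc7a5 (-1.09, or -0.58 with the regional medians removed). Of 28 glycolysis and hypoxia genes 7 rose and 6 fell, with a median of 0.27, or 9 and 5 with the regional medians removed. The glucose transporter Slc2a3 fell from 1306, 1313 and 1330 TPM to 481, 426 and 496 TPM (log2FC -1.49, or -0.98 with the regional medians removed). Of 29 cell-cycle genes 11 fell (37.9%, against 21.5% of all genes) and 4 rose, with a median of -0.11, or -0.06 with quantile normalization and -0.04 with voom. The replication licensing gene Mcm2 fell from between 1116 and 1171 to between 687 and 735 TPM (log2FC -0.68, or -0.17 with the regional medians removed).

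Of 66 ribosomal protein genes 7 fell (10.6%, against 21.5% of all genes), 3 with the regional medians removed, and none rose, with a median of 0.02. None of the 7 mitochondrially encoded genes was called (median 0.16), and their summed TPM was 34457 to 44365 at d4 and 37677 to 44384 at d6. The abundant metallothionein gene Mt1, which binds zinc, rose from 1122, 1268 and 1191 TPM to 2403, 2438 and 2109 TPM (log2FC 0.95, or 1.46 with the regional medians removed).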
